A study of Mus musculus with 2 samples.

Results

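Type I interferon stimulated genes are transcripts that cells make after interferon alpha or beta binds its receptor, and they were described here across the cells of mouse tumours. The members were a list of 36 named genes, of which 35 were among the 31053 genes of the matrix analysed. Mx2, which GENCODE M21 annotates as a polymorphic pseudogene, was not analysed here. The tumours came from 3 samples treated with ACSS2i and 3 given vehicle, combined and run on 1 lane of a droplet platform, and the strain is given as NGS mouse. ACSS2i is an inhibitor of ACSS2, an enzyme that makes acetyl-CoA from acetate. The design text of the series names Bmal1 status, a factor that no label of the pool gives. The sample of origin was marked by 6 antibody tags (D0, D4, D1, U2, U3 and U4). No label used here ties a tag to vehicle or to ACSS2i, so no comparison of the arms was made, and each tag is given as a sample of unknown treatment. The pool is 1 library, and the values below therefore carry counting error only, with no test.

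Interferon alpha and beta act through the receptor chains Ifnar1 and Ifnar2 and the kinases Jak1 and Tyk2. These activate factors such as Stat2, which joins Irf9 in the complex ISGF3, and ISGF3 binds the interferon stimulated response element (ISRE) in the promoters of its targets. Interferon gamma acts through another receptor and through the gamma activated site (GAS) in promoters, and it strongly induces GTPases such as Iigp1 and Igtp in mouse cells. Many genes answer to both kinds of interferon, which is why the members were set beside Iigp1 and Igtp below.

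The promoters of 4 members from the 5 closest pairs in tumour barcodes (given below), and of Igtp as the contrast, show how the binding sites are placed. Other members that varied closely with the rest, such as Ifi44, Oasl2 and Xaf1, held no ISRE match and are not printed. Each line is the 250 bases before the RefSeq start (GRCm38.p6), read in the direction of transcription, with matches to the ISRE pattern (GAAA, any 2 bases, then GAAA) on either strand in capitals, and for Igtp also the match to the GAS pattern TTCNNNGAA. Ifit1 lies at chr19:34640639-34640888, plus strand, Ifit3 at chr19:34583279-34583528, plus strand, Isg15 at chr4:156200819-156201068, minus strand, Rsad2 at chr12:26456453-26456702, minus strand, and Igtp at chr11:58199306-58199555, plus strand.
Ifit1: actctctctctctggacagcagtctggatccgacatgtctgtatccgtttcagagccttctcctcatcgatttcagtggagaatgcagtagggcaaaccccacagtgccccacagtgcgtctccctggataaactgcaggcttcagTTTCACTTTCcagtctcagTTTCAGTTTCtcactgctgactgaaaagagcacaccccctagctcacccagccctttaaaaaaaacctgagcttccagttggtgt
Ifit3: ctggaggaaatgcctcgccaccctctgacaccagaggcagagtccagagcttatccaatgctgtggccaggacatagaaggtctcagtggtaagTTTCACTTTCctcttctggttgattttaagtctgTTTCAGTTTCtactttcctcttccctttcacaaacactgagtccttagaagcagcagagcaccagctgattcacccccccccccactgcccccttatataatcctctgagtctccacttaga
Isg15: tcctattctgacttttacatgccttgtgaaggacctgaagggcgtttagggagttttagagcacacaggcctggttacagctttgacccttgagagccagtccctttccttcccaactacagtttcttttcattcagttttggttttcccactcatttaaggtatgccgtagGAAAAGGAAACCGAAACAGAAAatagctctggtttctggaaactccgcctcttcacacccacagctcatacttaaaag
Rsad2: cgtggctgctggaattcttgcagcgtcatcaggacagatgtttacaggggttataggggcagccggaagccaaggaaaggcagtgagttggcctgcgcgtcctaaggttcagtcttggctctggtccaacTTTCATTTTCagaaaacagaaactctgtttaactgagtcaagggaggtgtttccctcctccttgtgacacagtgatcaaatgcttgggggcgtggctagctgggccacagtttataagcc
Igtp: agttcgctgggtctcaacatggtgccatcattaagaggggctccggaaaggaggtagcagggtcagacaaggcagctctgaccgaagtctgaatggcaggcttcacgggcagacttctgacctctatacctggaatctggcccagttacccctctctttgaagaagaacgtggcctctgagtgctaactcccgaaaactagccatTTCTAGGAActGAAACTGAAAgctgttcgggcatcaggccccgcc

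Ifit1 and Ifit3 each held 2 separate ISRE matches, starting at -104 and -85 in Ifit1 and at -156 and -122 in Ifit3, counted in bases from the start. Isg15 held 3 matches at -78, -72 and -66 that overlap as 1 run, and Rsad2 held 1 at -120. Igtp held a GAS match at -45 and an ISRE match at -34. RefSeq promoters were at hand for 26 of the 36 members. Over windows from 250 bases before to 50 bases after the start, 13 of the 26 members held an ISRE match, against 3.99% of 27025 genes. A GAS match was present in 6 of the 26 members (23.1%), against 9.55% of genes. A match is a description of the letters and does not show that a factor binds there.

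Barcodes with at least 500 genes and under 15% mitochondrial counts were put into 5 classes by a few transcripts. Macrophage barcodes had at least 3 UMIs (unique molecular identifiers, each counting 1 captured transcript) of the complement genes C1qa, C1qb and C1qc, and T barcodes at least 2 UMIs of Cd3d, Cd3e and Cd3g. NK barcodes had at least 1 UMI of Ncr1 or Klrb1c and none of the Cd3 genes, B barcodes had at least 2 of Cd79a and Cd79b, and tumour barcodes had at least 3 of Krt8 and Krt18 and none of Ptprc. This gave 396 macrophage, 729 T, 121 NK, 92 B and 5209 tumour barcodes out of 7919 kept, with a median of 4326.5, 1648, 3359, 1091.5 and 25138 UMIs. Markers outside the rules were highest in their own class for all 4 immune classes, such as Csf1r in macrophage and Trac in T barcodes. The tumour label rests on Krt8, Krt18 and Sox9 (760.2 CPM, counts per 1000000 gene UMIs of the class), because the epithelial markers Krt7, Krt19, Epcam, Cdh1 and Krt5 were each under 0.1 CPM there, and the fibroblast list summed to 3049.6 CPM. Krt8 and Krt18 reached 30.7% of the tumour level in macrophage, 33.9% in T, 27.5% in NK and 44.7% in B barcodes. Most of that sat in 39, 29, 8 and 5 barcodes with at least 3 keratin UMIs, which held 32.6% to 43.9% of their class's UMIs. Values without those barcodes, in which keratin was 2.24% to 5.79% of the tumour level, are given beside the results.

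Summed over the 35 members, T barcodes held 2769 CPM and macrophage barcodes 2498 CPM, NK barcodes held 2093 CPM and B barcodes 1438 CPM, against 1935 CPM in tumour barcodes. The sum was 1.29 times the tumour level in macrophage barcodes (95% Poisson interval 1.26 to 1.32), 1.43 times in T (1.39 to 1.47), 1.08 times in NK (1.02 to 1.14) and 0.743 times in B barcodes (0.670 to 0.822). Without the immune barcodes that carried keratin, those ratios were 1.34, 1.54, 1.19 and 0.843 in the same order. The part of keratin-carrying barcodes in the other differences was not tested beyond these values. All 4 ratios share the same tumour barcodes. Bst2 alone held 28.6% of the member UMIs in tumour barcodes. Its share was 23.7% in macrophage, 18.1% in T, 15.2% in NK and 23.1% in B barcodes. The sums therefore weigh this gene most, and class ratios without Bst2 were not computed. The NK ratio lay on the other side of 1 among barcodes with 1 tag (0.984) and with tag doublets kept (0.967). It also did without the barcodes tagged D0 (0.991). Tumour barcodes without a tag, 35.5% of them, stood at 1510.3 CPM for the summed members.

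Gene by gene, a member was counted as higher or lower when its CPM differed by at least 2-fold and at least 10 UMIs were expected in the smaller class at the mean of the 2 levels. A member can pass this filter only through its level in the immune class, and cannot then be counted as lower. Among the higher members this holds for Oas2, Oasl1, Ifih1 and Mx1 in macrophage, Ifih1, Oas3 and Mx1 in T and Trim30a in B barcodes. Oas3 in macrophage, Dhx58 in T and Irf7 and Herc6 in NK barcodes met the filter at the tumour level. At a level 2-fold lower they would not have passed it, so they too could not be counted as lower. All genes met the same filter, but how many passed in either way was not counted. In macrophage barcodes 12 of the 34 members past that filter were higher than in tumour barcodes and 0 were lower, where 14.2% of 9869 genes were higher and 10.8% lower. In T barcodes 10 of 32 were higher and 0 lower (15.5% and 11.4% of 9539 genes). NK barcodes had 5 of 26 higher and 1 lower (12.6% and 16.1% of 6197 genes). B barcodes had 1 of 11 higher and 3 lower (9.17% and 14.5% of 3402 genes). The share of members counted as higher was above the share of all genes in macrophage, T and NK barcodes, and near it in B barcodes, whose 262129 UMIs let few members pass. Of the 92 B barcodes, 81 carried U3, and without that tag 0 members were counted either way. The count of lower members in NK barcodes was 3 without U2, 2 without D4 and 0 without D1. The median ratio of the members past the filter was 1.40 in macrophage barcodes (0.926 over all genes), 1.69 in T (0.989), 1.19 in NK (0.915) and 0.767 in B (0.835). Without keratin-carrying immune barcodes, 12 of 33 members were higher and 1 lower in macrophage barcodes (18.7% and 19.9% of genes), 15 and 0 of 32 in T (20.2% and 21.3%), 8 and 2 of 24 in NK (16.9% and 23.9%), and 2 and 4 of 8 in B (15.8% and 31.1%).

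**Figure D1:**
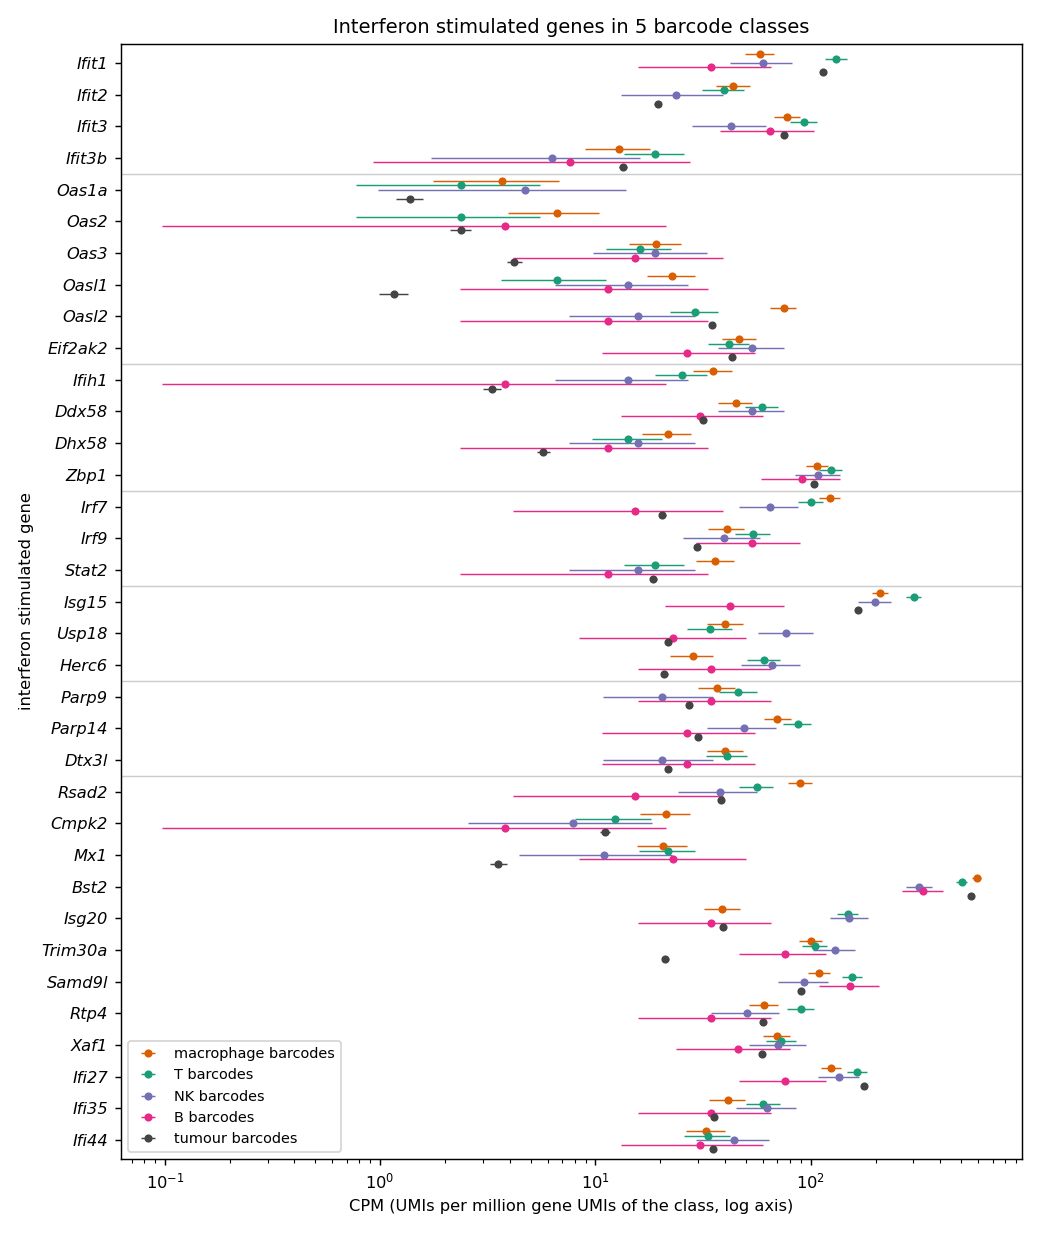
CPM of the 35 members (log axis) in macrophage, T, NK, B and tumour barcodes, grouped by role, with exact Poisson 95% intervals as bars; a member with no UMI in a class (Ifit2 and Oas1a in B barcodes, Oas2 in NK barcodes) has no point there. Oasl1, Mx1 and Trim30a lie furthest left in tumour barcodes, and Ifih1 and Irf7 lie left of their macrophage, T and NK points there, while Bst2, Ifit3, Zbp1 and Xaf1 lie close together in all 5 classes.

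The transcription factors of the pathway had the largest summed ratio of the 7 roles in macrophage and T barcodes, with Irf7 the highest ratio among them. Irf7, the factor that amplifies interferon production, stood at 123 CPM in macrophage barcodes, 100.1 CPM in T barcodes, 64.5 CPM in NK barcodes and 15.3 CPM in B barcodes, against 20.4 CPM in tumour barcodes. That is 5.995 (95% interval 5.34 to 6.72) times the tumour level in macrophage, 4.90 (95% interval 4.24 to 5.64) times in T and 3.16 (95% interval 2.26 to 4.29) times in NK barcodes, while the interval in B barcodes spans 1. Irf9, the DNA-binding part of ISGF3, stood at 40.7, 54.1, 39.3 and 53.4 CPM in macrophage, T, NK and B barcodes, against 29.5 CPM in tumour barcodes. Stat2, its activating partner, stood at 36.0, 19.0, 15.7 and 11.4 CPM in macrophage, T, NK and B barcodes, against 18.6 CPM in tumour barcodes. Irf7 was the only 1 of the 3 past 2-fold with all barcodes, and Irf9 also passed in T barcodes without keratin-carrying ones (2.35). The summed factors were 2.91 times the tumour level in macrophage and 2.53 times in T barcodes.

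The sensors of foreign nucleic acid were split. Ifih1, which encodes the RNA sensor MDA5, stood at 35.2 CPM in macrophage barcodes, 25.2 CPM in T barcodes, 14.2 CPM in NK barcodes and 3.81 CPM in B barcodes, against 3.31 CPM in tumour barcodes, or 10.6 (95% interval 8.44 to 13.3) times the tumour level in macrophage and 7.59 (95% interval 5.604 to 10.1) times in T barcodes. Dhx58, which encodes the related helicase LGP2, was 21.6 CPM in macrophage and 14.2 CPM in T barcodes, against 5.73 CPM in tumour barcodes. Ddx58, which encodes the RNA sensor RIG-I, was within 2-fold of the tumour level (31.7 CPM) in all 4 immune classes, although in B barcodes it did not pass the filter. It passed 2-fold in T (2.13) and NK barcodes (2.06) once keratin-carrying barcodes were left out. Zbp1, a sensor of Z-form nucleic acid that can trigger necroptosis, stood at 107, 124, 109 and 91.6 CPM in macrophage, T, NK and B barcodes, against 103 CPM in tumour barcodes. No immune class differed from tumour barcodes by 2-fold in Zbp1, whereas Ifih1 and Dhx58 did in macrophage and T barcodes.

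The OAS genes, whose products make the oligoadenylates that switch on RNase L, and Eif2ak2, the gene of the kinase PKR, were 2.001 times the tumour level as a sum in macrophage barcodes (1.82 to 2.19) and 1.13 times in T barcodes (0.982 to 1.30). Oasl1, known in mice as a brake on Irf7 translation, stood at 22.7 CPM in macrophage barcodes, 6.64 CPM in T barcodes, 14.2 CPM in NK barcodes and 11.4 CPM in B barcodes, against 1.15 CPM in tumour barcodes. Its ratio in macrophage barcodes, 19.7 (95% interval 14.5 to 26.6), was the largest of any member past the filter in the 4 comparisons, from 62 UMIs. Oasl1 passed the filter there only through its macrophage level. Oasl2, a mouse oligoadenylate synthetase-like gene, stood at 74.8, 28.9, 15.7 and 11.4 CPM in macrophage, T, NK and B barcodes, against 34.8 CPM in tumour barcodes. It was 2.15 times the tumour level in macrophage and 0.453 times in NK barcodes, where it no longer passed the filter without keratin-carrying barcodes. Oas3 was 19.1 CPM in macrophage and 16.1 CPM in T barcodes, against 4.21 CPM in tumour barcodes. Oas1a and Oas2 were at most 6.604 CPM in every class. Of the last 500 bases of Oas1a, in words of 50 bases, 56.1% is shared with Oas1g, so the count of Oas1a may be off. Eif2ak2 stood at 46.6, 41.8, 53.5 and 26.7 CPM in macrophage, T, NK and B barcodes, against 42.9 CPM in tumour barcodes. These values are within 2-fold in every class, but Eif2ak2 did not pass the filter in B barcodes.

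The IFIT genes, whose proteins bind foreign RNA and block its translation, were the role with the lowest summed ratio in macrophage and NK barcodes. Their sum was 0.863 times the tumour level in macrophage barcodes, 1.27 times in T, 0.593 times in NK and 0.479 times in B barcodes. Ifit1 stood at 58.0 CPM in macrophage barcodes, 131 CPM in T barcodes, 59.8 CPM in NK barcodes and 34.3 CPM in B barcodes, against 114 CPM in tumour barcodes, and its macrophage ratio was 0.506 (95% interval 0.430 to 0.592), or 0.327 without keratin-carrying barcodes. Ifit3 stood at 77.8, 93.0, 42.5 and 64.9 CPM in macrophage, T, NK and B barcodes, against 75.4 CPM in tumour barcodes. In NK barcodes Ifit1 and Ifit3 were lower by 2-fold once keratin-carrying barcodes were left out (0.469 and 0.464). Ifit2 went the other way, with 43.7 CPM in macrophage and 39.4 CPM in T barcodes, against 19.5 CPM in tumour barcodes. Ifit3b was within 2-fold in macrophage and T barcodes, and 14.9% of the last 500 bases of Ifit3, in words of 50, recur in it. The 4 genes lie side by side at chr19:34550694-34650009 (GENCODE M21, GRCm38), yet Ifit1 was lower and Ifit2 higher in macrophage than in tumour barcodes.

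In the ISG15 system, Isg15, the ubiquitin-like protein that is attached to others after interferon, stood at 209.8 CPM in macrophage barcodes, 301 CPM in T barcodes, 198 CPM in NK barcodes and 41.96 CPM in B barcodes, against 166 CPM in tumour barcodes. It was 1.81 (95% interval 1.67 to 1.96) times the tumour level in T and 0.253 (95% interval 0.126 to 0.452) times in B barcodes. Herc6, which encodes the main ligase for Isg15 in mice, stood at 28.2, 60.7, 66.1 and 34.3 CPM in macrophage, T, NK and B barcodes, against 20.9 CPM in tumour barcodes. Usp18, which removes Isg15 and damps the receptor, stood at 40.0, 34.2, 77.1 and 22.9 CPM in macrophage, T, NK and B barcodes, against 21.7 CPM in tumour barcodes, with a ratio of 3.55 (95% interval 2.62 to 4.71) in NK barcodes. T and NK barcodes were highest in the ligase and NK barcodes in the protease, while B barcodes were lowest in Isg15. Parp9, Dtx3l and Parp14, which encode ADP-ribosylating enzymes and a ubiquitin ligase and lie at chr16:35832874-35972605, were as a sum 1.85 times the tumour level in macrophage and 2.19 times in T barcodes. With all barcodes Parp14 was the only 1 of the 3 past 2-fold, with 70.1 CPM in macrophage and 86.8 CPM in T barcodes, against 30.1 CPM in tumour barcodes. Without keratin-carrying barcodes Dtx3l was past 2-fold in macrophage (2.18) and T barcodes (2.16), Parp9 in T barcodes (2.05) and Parp14 also in NK barcodes (2.17).

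Among the other effectors, Trim30a, a mouse TRIM protein that restrains inflammatory signalling, was past 2-fold in all 4 immune classes. In B barcodes Trim30a passed the filter only through its level there. It stood at 100.2 CPM in macrophage barcodes, 105 CPM in T barcodes, 129 CPM in NK barcodes and 76.3 CPM in B barcodes, against 21.1 CPM in tumour barcodes. Its ratio was 4.75 (95% interval 4.18 to 5.37) in macrophage, 4.97 (95% interval 4.31 to 5.70) in T, 6.12 (95% interval 4.85 to 7.62) in NK and 3.62 (95% interval 2.21 to 5.59) in B barcodes. Mx1, a dynamin-like antiviral GTPase, stood at 20.5, 21.8, 11.0 and 22.9 CPM in macrophage, T, NK and B barcodes, against 3.54 CPM in tumour barcodes, with ratios of 5.80 (95% interval 4.32 to 7.66) in macrophage and 6.16 (95% interval 4.45 to 8.35) in T barcodes. Isg20, an RNA exonuclease, divided the immune classes. It stood at 38.9, 149, 151 and 34.3 CPM in macrophage, T, NK and B barcodes, against 39.1 CPM in tumour barcodes, which is 3.81 (95% interval 3.39 to 4.27) times the tumour level in T, 3.86 (95% interval 3.12 to 4.73) times in NK and 0.995 (95% interval 0.813 to 1.21) times in macrophage barcodes. Rsad2, the gene of the antiviral enzyme viperin, stood at 89.5, 56.0, 37.8 and 15.3 CPM in macrophage, T, NK and B barcodes, against 38.3 CPM in tumour barcodes, past 2-fold in macrophage barcodes. Cmpk2, a mitochondrial nucleotide kinase gene next to Rsad2 at chr12:26442746-26479837, stood at 21.3, 12.3, 7.87 and 3.81 CPM in macrophage, T, NK and B barcodes, against 11.1 CPM in tumour barcodes.

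The remaining effectors were mostly within 2-fold of the tumour level. Bst2, which encodes tetherin, a membrane protein that holds budding virus at the cell surface, stood at 591, 502, 318 and 332 CPM in macrophage, T, NK and B barcodes, against 554 CPM in tumour barcodes. Ifi27, a small membrane protein induced by interferon, stood at 125, 165, 135 and 76.3 CPM in macrophage, T, NK and B barcodes, against 176 CPM in tumour barcodes. It is the member with the most UMIs in tumour barcodes after Bst2, and all 4 immune classes were below the tumour level, although the interval of the ratio included 1 in T barcodes. Samd9l, a restriction factor for poxviruses, stood at 109.7, 156, 92.9 and 153 CPM in macrophage, T, NK and B barcodes, against 90.6 CPM in tumour barcodes. Rtp4, a receptor-transporting protein, stood at 60.5, 89.7, 50.4 and 34.3 CPM in macrophage, T, NK and B barcodes, against 60.3 CPM in tumour barcodes. Xaf1, which binds the apoptosis inhibitor XIAP, stood at 69.7, 73.1, 70.8 and 45.8 CPM in macrophage, T, NK and B barcodes, against 59.7 CPM in tumour barcodes. Ifi35, which encodes a protein that binds Nmi, was 63.0 CPM in NK and 60.3 CPM in T barcodes, against 35.6 CPM in tumour barcodes, and Ifi44 ranged from 30.5 CPM in B to 44.1 CPM in NK barcodes, against 35.2 CPM in tumour barcodes. With all barcodes Ifi27 in B barcodes, at 0.433 times the tumour level, was the exception, and Ifi35 and Ifi44 did not pass the filter there. Without keratin-carrying barcodes Samd9l was past 2-fold in T (2.03) and B barcodes (2.18), Ifi35 in NK barcodes (2.23), and Bst2 on the lower side in B barcodes (0.429).

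Depth sets how many barcodes show a member, so each barcode was also thinned to 1000 UMIs, which left out 6 macrophage, 45 T, 2 NK, 32 B and 15 tumour barcodes. At that depth a UMI of any member was seen in 76.4% of macrophage, 75.1% of T, 71.4% of NK and 70.0% of B barcodes, against 70.1% of tumour barcodes, and unthinned in 96.7%, 85.9%, 92.6% and 73.9%, against 99.5%. Irf7 was seen in 13.8% of macrophage barcodes (exact 95% interval 10.6 to 17.7) and 11.3% of T barcodes (8.99 to 13.9), against 2.18% of tumour barcodes (1.80 to 2.61). Unthinned, these shares were 37.6% and 18.9%, against 24.1%. Trim30a was seen in 11.5% of macrophage, 13.0% of T, 10.9% of NK and 15% of B barcodes, against 2.43% of tumour barcodes. Isg15 was seen in 13.8% of macrophage and 15.9% of T barcodes, against 11.5% of tumour barcodes, and in 11.8% of NK and 1.67% of B barcodes. The tumour keratin Krt8 showed how much RNA from other cells a barcode can hold, and was detected in 8.46% of macrophage and 5.99% of T barcodes, against 48.4% of tumour barcodes, and C1qa in 0.585% of T barcodes and 0.0578% of tumour barcodes. The median depth before thinning was 4326.5 UMIs in macrophage and 1648 in T barcodes, against 25138 in tumour barcodes.

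The other genes of the pathway were taken from lists of ligands, receptors, upstream signalling, shared factors and other interferon targets. Of 21 interferon genes, only Ifng, the interferon gamma gene, passed the filter, with 151 CPM in T and 118 CPM in NK barcodes, against 0.0430 CPM in tumour barcodes. Ifnb1, the interferon beta gene, had 81 UMIs in tumour barcodes (0.581 CPM) and 0 in the 4 immune classes, where 3 counts would be 1.10 CPM in macrophage and 1.42 CPM in T barcodes, so a lower level there was not detectable at this depth. Each count for the next lists is of the genes past the filter, to be read against the shares of all genes given above, which for higher genes were 14.2% in macrophage, 15.5% in T, 12.6% in NK and 9.17% in B barcodes. Of the receptor and kinase genes, 7 of 8 were higher in macrophage and 5 of 8 in T barcodes with 0 lower, 4 of 7 were higher and 1 lower in NK barcodes, and 1 of 2 was higher in B barcodes. The 2 with the most UMIs were Jak1 (112, 255, 268 and 153 CPM in macrophage, T, NK and B barcodes, against 74.1 CPM in tumour barcodes) and the gamma receptor gene Ifngr1 (207, 498, 381 and 76.3 CPM in macrophage, T, NK and B barcodes, against 66.8 CPM in tumour barcodes). Ifnar1, the chain that starts the type I signal, stood at 76.3, 75.5, 67.7 and 41.96 CPM in macrophage, T, NK and B barcodes, against 14.1 CPM in tumour barcodes. It was named after its values were seen.

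Upstream of the ligands, 6 of 11 signalling genes were higher in macrophage, 3 of 8 in T and 0 of 2 in NK barcodes, with 0 lower and none past the filter in B barcodes, and the 2 with the most UMIs were Tmem173, the gene of STING (40.4, 40.8, 26.8 and 38.1 CPM in macrophage, T, NK and B barcodes, against 18.5 CPM in tumour barcodes), and the kinase gene Tbk1 (25.7, 32.7, 15.7 and 30.5 CPM in macrophage, T, NK and B barcodes, against 16.6 CPM in tumour barcodes). Of the shared factors and brakes, 4 of 7 were higher in macrophage and 5 of 7 in T barcodes with 0 lower, 5 of 7 were higher and 1 lower in NK barcodes, and 3 of 6 were higher and 1 lower in B barcodes. The 2 with the most UMIs were not among those higher: Irf1, a factor induced by both interferons, stood at 117, 151, 148 and 122 CPM in macrophage, T, NK and B barcodes, against 225 CPM in tumour barcodes, and Socs3, a brake on Jak kinases, at 224, 128, 67.7 and 87.7 CPM in macrophage, T, NK and B barcodes, against 180.0 CPM in tumour barcodes. Of the interferon gamma induced GTPases, 2 of 12 were higher in macrophage barcodes, near the share of all genes, and 6 of 13 in T barcodes, with 0 lower, while 3 of 9 were higher and 1 lower in NK barcodes and 2 of 2 were lower in B barcodes. Iigp1 stood at 145, 108, 104 and 19.1 CPM in macrophage, T, NK and B barcodes, against 208 CPM in tumour barcodes, and Gbp2 at 137, 67.4, 69.3 and 26.7 CPM in macrophage, T, NK and B barcodes, against 119 CPM in tumour barcodes. Of the other interferon induced genes, 24 of 42 were higher and 0 lower in macrophage, 25 of 42 were higher and 3 lower in T, 15 of 30 were higher and 2 lower in NK, and 5 of 17 were higher and 7 lower in B barcodes. Ifitm3, a membrane protein that blocks viral entry, stood at 1888, 1025, 1201 and 1030.0 CPM in macrophage, T, NK and B barcodes, against 2364 CPM in tumour barcodes, and its relative Ifitm2 at 734, 384, 1321 and 339.5 CPM in macrophage, T, NK and B barcodes, against 736 CPM in tumour barcodes.

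Among the 6 tagged samples, tumour barcodes tagged D0 had the highest members. Their summed CPM was 3031 in D0, 2302 in D4, 2172 in D1, 2042 in U2, 1952 in U3 and 1847 in U4, from 163, 159, 1011, 1665, 146 and 216 barcodes. D0 was 1.48 times the median of the other 5 tags, which lay between 1847 and 2302 CPM. Of the 35 members, 29 were highest in D0, 3 in D4, 2 in U2 and 1 in U4, and the lowest tag was U4 for 14 members and U3 for 12. The share of all genes highest or lowest in each tag was not counted, so these counts have no background beside them. Tumour barcodes tagged D0 held 3985748 UMIs, against 45891119 in U2, so counting error differs between tags. The order of the tags depends on tag assignment. With untagged barcodes given to their strongest tag, D0 was 1.11 times the median of the others and 16 members were highest in it.

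Isg15 in tumour barcodes was 343 CPM in D0, 195 CPM in D4, 231 CPM in D1, 147 CPM in U2, 167 CPM in U3 and 134 CPM in U4. Ifit1 was 227 CPM in D0, 151 CPM in D4, 151 CPM in D1, 99.2 CPM in U2, 90.3 CPM in U3 and 61.6 CPM in U4, and Ifit3 was 155 CPM in D0, 96.7 CPM in D4, 93.9 CPM in D1, 72.7 CPM in U2, 73.6 CPM in U3 and 51.6 CPM in U4. In all 3 genes D0 was highest and U4 lowest. Bst2 was 817 CPM in D0, 638 CPM in D4, 589.7 CPM in D1, 635 CPM in U2, 582 CPM in U3 and 598 CPM in U4, so 5 tags lay close together and D0 above them.

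D0 was not on top for every abundant member. Zbp1 was 119 CPM in D0, 118 CPM in D4, 102 CPM in D1, 129.7 CPM in U2, 85.1 CPM in U3 and 98.3 CPM in U4, with U2 highest. Samd9l was 129 CPM in D0, 129 CPM in D4, 94.7 CPM in D1, 88.5 CPM in U2, 96.0 CPM in U3 and 85.3 CPM in U4, with D0 and D4 level. Rtp4 was 80.0 CPM in D0, 71.7 CPM in D4, 65.8 CPM in D1, 67.2 CPM in U2, 50.6 CPM in U3 and 55.1 CPM in U4. Xaf1 was 87.3 CPM in D0, 74.0 CPM in D4, 69.3 CPM in D1, 63.1 CPM in U2, 63.5 CPM in U3 and 59.1 CPM in U4. In both Rtp4 and Xaf1, D0 was highest and D4 next. Eif2ak2 was 50.4 CPM in D0, 59.7 CPM in D4, 51.1 CPM in D1, 39.9 CPM in U2, 42.9 CPM in U3 and 37.6 CPM in U4, highest in D4. Ifi27 was 169 CPM in D0, 163 CPM in D4, 165 CPM in D1, 196 CPM in U2, 200.2 CPM in U3 and 206 CPM in U4, and so was highest in the 3 U tags, where the summed members were lowest.

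The members with the widest spread over tags were not the most abundant ones. Rsad2 was 113 CPM in D0, 51.1 CPM in D4, 47.7 CPM in D1, 40.5 CPM in U2, 30.6 CPM in U3 and 10.7 CPM in U4, a span of 10.5-fold. Oasl1 was 5.27 CPM in D0, 2.87 CPM in D4, 1.28 CPM in D1, 0.959 CPM in U2, 0.820 CPM in U3 and 0.877 CPM in U4, a span of 6.42-fold whose lowest value is 3 UMIs. Mx1 was 12.3 CPM in D0, 5.995 CPM in D4, 4.32 CPM in D1, 2.61 CPM in U2, 3.83 CPM in U3 and 1.93 CPM in U4, a span of 6.37-fold. Ifih1 was 7.28 CPM in D0, 4.95 CPM in D4, 4.80 CPM in D1, 3.20 CPM in U2, 1.37 CPM in U3 and 2.11 CPM in U4, a span of 5.32-fold whose lowest value is 5 UMIs. These 4 were highest in D0, with the lowest value in U3 or U4. Oasl2 was 62.0 CPM in D0, 49.0 CPM in D4, 41.3 CPM in D1, 36.1 CPM in U2, 26.0 CPM in U3 and 36.0 CPM in U4. Trim30a was 38.1 CPM in D0, 26.1 CPM in D4, 23.7 CPM in D1, 20.6 CPM in U2, 28.7 CPM in U3 and 23.5 CPM in U4. Isg20 was 53.2 CPM in D0, 31.8 CPM in D4, 44.9 CPM in D1, 34.5 CPM in U2, 41.3 CPM in U3 and 34.2 CPM in U4. The spans of these 3 were 2.39-fold, 1.85-fold and 1.67-fold, with D0 highest in each. Irf9 was 36.9 CPM in D0, 40.7 CPM in D4, 27.9 CPM in D1, 33.0 CPM in U2, 25.2 CPM in U3 and 30.01 CPM in U4, with D4 highest and a span of 1.62-fold. Irf7 was 47.4 CPM in D0, 28.7 CPM in D4, 29.9 CPM in D1, 17.5 CPM in U2, 31.5 CPM in U3 and 16.5 CPM in U4, with D0 highest and U4 lowest. Ddx58 had the narrowest spread, from 32.3 CPM in U2 to 36.6 CPM in D0, a span of 1.13-fold. Iigp1 and Igtp parted from the members over tags chiefly in U2. Their summed CPM in tumour barcodes was 233 in D0, 186 in D4, 179 in D1, 496 in U2, 67.6 in U3 and 159.7 in U4. It was highest in U2, whose summed members were below those of all 3 D tags. Among the other tags, D0, D4 and D1 came in the same order for both and above U3 and U4, whose order was reversed.

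The summed members of T barcodes had the same 3 tags on top as those of tumour barcodes, with 6083 CPM in D0, 4308 in D4, 3170.4 in D1, 2257 in U2, 1929.6 in U3 and 2535 in U4. In macrophage barcodes they were 3391 CPM in D0, 2472 in D1, 2065 in U2, 2214 in U3 and 3024 in U4, and in NK barcodes 3374 in D0, 1863 in D1 and 1883 in U2. D0 was highest in each of these classes among tags with at least 20 barcodes, while the 9 macrophage barcodes tagged D4 stood at 4492 CPM (95% Poisson interval 3804 to 5268). B barcodes held none tagged D0. Within tags, macrophage barcodes were above tumour barcodes in 5 of 5 tags, with ratios of 1.01 to 1.64 and a median of 1.13, and T barcodes in 5 of 6, with ratios of 0.989 to 2.01 and a median of 1.42. NK barcodes were above in 1 of 3 tags, and B barcodes, with 1 tag of 20 or more barcodes (U3), in 0 of 1. Krt8 and Krt18, which mark tumour RNA, were 561 CPM in the T barcodes tagged D0, 470.0 CPM in those tagged U2 and 31.0 CPM in those tagged U4. Without keratin-carrying barcodes the summed members of T barcodes were 5824 CPM in D0, 4387 in D4, 4117 in D1, 2225 in U2, 2068 in U3 and 2535 in U4, so D0 was the highest there too.

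Single members kept these directions to different degrees. In macrophage barcodes 15 members were above the tumour level in 5 of 5 tags, among them Irf7, Ifih1, Oasl1, Oas3, Dhx58, Mx1, Trim30a and Parp14. In T barcodes 13 members were above it in 6 of 6 tags, among them Trim30a, Irf7, Isg20, Ifih1, Herc6, Samd9l and Irf9. The tags split the same barcodes that gave the pooled ratios, and the share of all genes above in every tag was not counted. Isg15 was above in 5 of 6 tags in T barcodes, at 971 CPM in D0, 469 CPM in D4, 429 CPM in D1, 178 CPM in U2, 164 CPM in U3 and 171 CPM in U4. Trim30a in T barcodes was 215 CPM in D0, 162 CPM in D4, 114 CPM in D1, 78.3 CPM in U2, 83.9 CPM in U3 and 139.6 CPM in U4. Ifit1 was above in 1 of 5 tags in macrophage and in 4 of 6 in T barcodes, and Ifi27 in 0 of 5 and 3 of 6, so for these genes the order of the classes differed between tags.

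**Figure D2:**
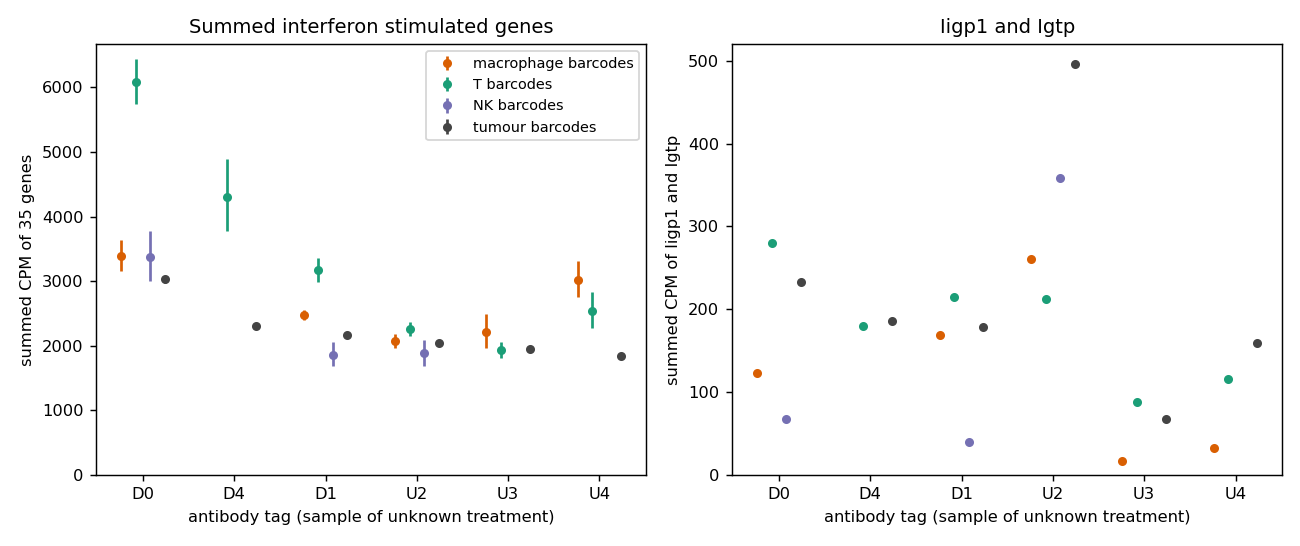
Summed CPM of the 35 members (left, with exact Poisson 95% intervals) and of Iigp1 and Igtp (right) for each antibody tag, by class, where the class held at least 20 barcodes in the tag. D0 is highest for the members in macrophage, T, NK and tumour barcodes, and U2 is highest for Iigp1 and Igtp in macrophage, NK and tumour barcodes.

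How far the members vary together was examined across tumour barcodes, all from 1 library, each thinned to 10000 UMIs so that depth is equal (4931 barcodes, with 278 too shallow). Over all 595 pairs of members the Pearson correlation of log2(UMIs + 1) had a median of 0.20, and 477 pairs (80.2%) were at 0.10 or more. The share over pairs of all genes was not computed, so the count of pairs has no background beside it. Counted singly, 28 of the 29 members seen in at least 5% of barcodes had an r of 0.10 or more with the sum of the other members, where 2.31% of 8617 genes had one with the summed members. Within tags the median over pairs was 0.19. The summed members had an r of -0.07 with the UMIs of the barcode before thinning. The 5 closest pairs were Ifit1 with Ifit3 (0.80), Ifit3 with Ifit3b (0.69), Ifit1 with Rsad2 (0.68), Ifit3 with Isg15 (0.68) and Ifit1 with Isg15 (0.68). Their promoters, other than that of Ifit3b, are printed above, and each holds an ISRE match. Ifi44 (0.57), Oasl2 (0.55) and Xaf1 (0.54), which held no match, had a higher r with the sum of the other members than Rsad2 (0.47). The 13 members with an ISRE match had a median r with the other members of 0.43 (0.14 to 0.69), and the 13 with a promoter in the table but no match had 0.35 (0.11 to 0.57), ranges that overlap.

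**Figure D3:**
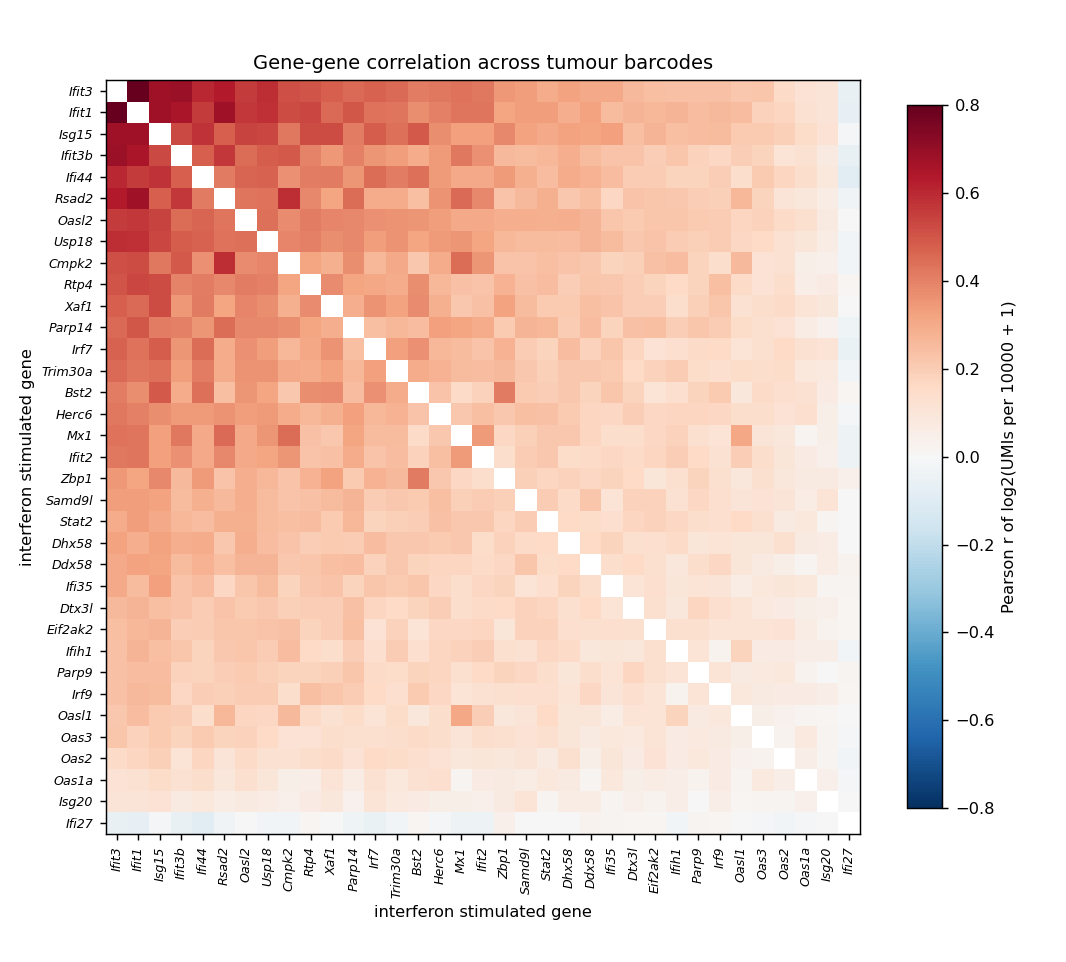
Pearson correlation (colour scale) of log2(UMIs per 10000 + 1) for each pair of the 35 members across 4931 tumour barcodes, ordered by mean correlation. Ifit3, Ifit1 and Isg15 head a block of high values at the upper left, and Ifi27 at the bottom and right edge has values near or below 0.

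Isg15 (0.69), Ifit3 (0.64), Ifit1 (0.63), Ifi44 (0.57), Bst2 (0.55), Oasl2 (0.55), Rtp4 (0.55) and Xaf1 (0.54) had the highest correlation with the sum of the other members. The 3 members with the lowest mean r over their pairs were Ifi27 (-0.01), Isg20 (0.06) and Oas1a (0.08). Ifi27 is not sparse, with a UMI in 75.6% of thinned barcodes, whereas Oas1a was seen in 1.38%. Whether sparseness lowered the r of Oas1a was not tested, and Oasl1, seen in 0.872%, had a mean r of 0.13. Isg20 was seen in 29.2%. Members that lie within 200000 bases of each other formed 14 pairs with a median r of 0.30, against 0.20 for the other pairs.

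The members were spread unevenly over tumour barcodes. Their sum had a mean of 20.1 and a median of 12 UMIs per 10000, a 95th percentile of 66 and a maximum of 327, and the 10% of barcodes with the highest sums held 39.7% of all member UMIs. For Iigp1 and Igtp together the mean was 2.53 and the median 0, 59.1% of barcodes held none, and the highest 10% held 72.8%. Single genes differed in this as well. Bst2 was seen in 88.7% of barcodes, Zbp1 in 54.5%, Samd9l in 51.7% and Isg15 in 42.02%. Ifit1 was seen in 21.0% and Rsad2 in 9.31%, and the variance of their UMIs was 19.8 and 20.6 times the mean, where the median over genes was 1.08. Ifit1 and Rsad2 were concentrated in few barcodes, whereas Bst2 and Zbp1 were seen in most.

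The members and the gamma-induced pair Iigp1 and Igtp overlapped without coinciding. The sum of the members had an r of 0.43 with Iigp1 and Igtp across the 4931 tumour barcodes, and of 0.41 within tags. By comparison Iigp1 and Igtp had 0.63 with each other. Of the 35 members, 34 had a higher r with the sum of the other members than with Iigp1 and Igtp, the exception being Ifi27 (0.03 with the members and 0.08 with the pair). The median was 0.35 with the members and 0.23 with the pair. These 2 measures differ in sparseness, because the pair was at 0 in 59.1% of the barcodes and the summed members in 0.284%. How far that lowers an r with the pair was not tested. The share of all genes with a higher r to the members was not counted. Of the 29 members seen in at least 5% of barcodes, 27 had an r of 0.10 or more with the pair, where 2.43% of genes had one. Parp9 (0.28 with the members and 0.27 with the pair), Eif2ak2 (0.25 and 0.19), Dtx3l (0.29 and 0.23) and Stat2 (0.32 and 0.26) were closest to equal. Isg15 (0.69 and 0.34), Ifit1 (0.63 and 0.29), Ifit3 (0.64 and 0.30) and Ifi44 (0.57 and 0.24) were farthest apart. Parp14 had the highest r with the pair, 0.36, and Isg20 the lowest, -0.01.

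**Figure D4:**
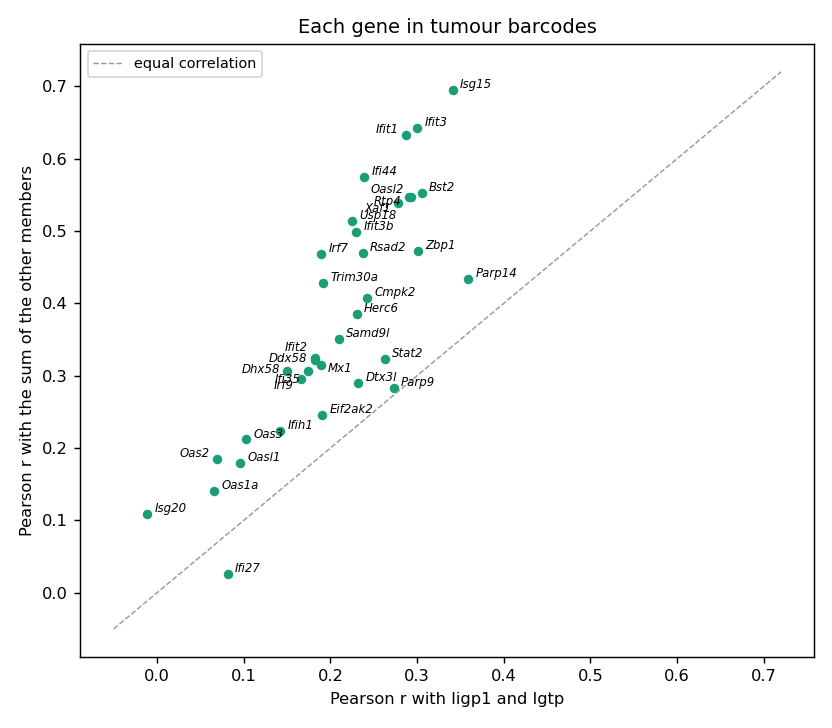
For each of the 35 members, Pearson r with the sum of the other members (vertical) against r with Iigp1 and Igtp (horizontal) across 4931 tumour barcodes, with a dashed line of equal correlation. The 34 members above the line include Isg15 and the IFIT genes far above it and Parp9 on its edge, and Ifi27 is below it. Iigp1 and Igtp are the sparser measure, at 0 in 59.1% of the barcodes.

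In terms of barcodes, the 493 with the highest members and the 493 with the highest Iigp1 and Igtp shared 131, or 26.6% of each (exact 95% interval 22.7 to 30.7), where 2 unrelated sets of 10% would share 10%. Of the 493 highest in Iigp1 and Igtp, 338 carried U2, and the overlap in each tag is given below. The other values here pool the tags and were not split by them. Barcodes high in members held a mean of 5.85 UMIs of Iigp1 and Igtp per 10000, against 2.16 in the other barcodes, and 19.1% of them held none, against 63.6%. Barcodes high in Iigp1 and Igtp held a mean of 42.4 member UMIs, against 17.7 in the others, with medians of 23 and 11. The mean of the members was 12.8 UMIs where Iigp1 and Igtp were at 0 (2916 barcodes), 21.8 at 1 UMI, 28.4 at 2, 31.0 at 3 to 4, 40.2 at 5 to 8, 46.1 at 9 to 16, and 38.7 at 17 to 94 UMIs (214 barcodes). The median was 9 at 0 UMIs and 23 in both of the highest bins. Members were higher wherever Iigp1 and Igtp were seen, and their mean was lower in the last bin than in the 2 before it.

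**Figure D5:**
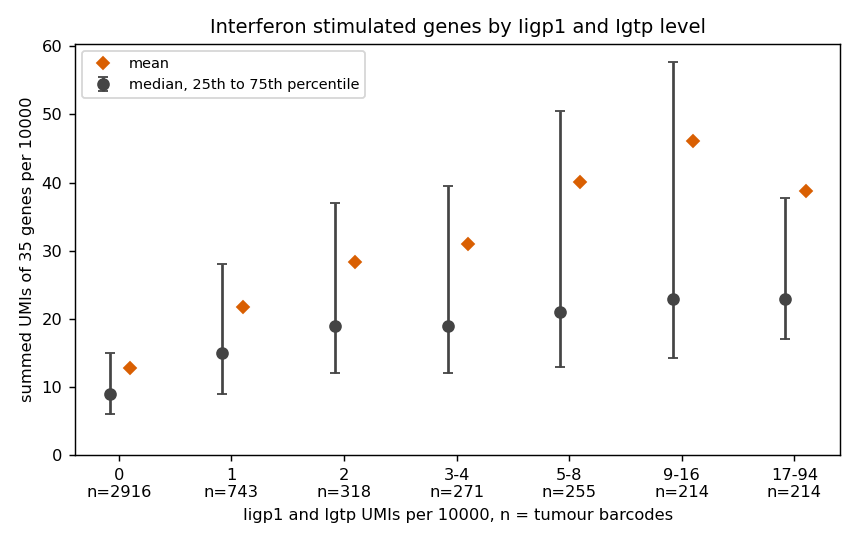
Summed UMIs of the 35 members per 10000 (vertical) in tumour barcodes grouped by their UMIs of Iigp1 and Igtp (horizontal), as median with the 25th to 75th percentile and as mean. The mean is 12.8 with none and 46.1 at 9 to 16 UMIs, and the upper quartile is lower in the last bin than in the 2 before it.

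The overlap had a different value in each tag. With the top 10% taken within each tag, the barcodes in both tops were 7 of 14 in D4 and 48 of 99 in D1 (48.5%), with shares of 46.7% in D0 (7 of 15), 42.9% in U3 (6 of 14), 28.6% in U4 (6 of 21) and 12.9% in U2 (21 of 163). Each tag is 1 sample, and the exact 95% intervals, such as 8.16 to 19.0 in U2 and 38.3 to 58.7 in D1, cover counting error only, so a difference between samples was not tested. The shares of U4, U3, D0 and D4 rest on 14 to 21 barcodes. Whether these tags belong to the treated or the vehicle arm is not given in the labels. U2 is also the tag with the highest Iigp1 and Igtp, and 338 of the 493 barcodes highest in that pair carried it. The correlation of the members with the pair was 0.37 in U2 and 0.42 to 0.56 in the other 5 tags. Barcodes with no tag shared 48.5% (81 of 167).

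Outside the list, the 10 genes most correlated with the summed members in tumour barcodes were Ifitm3 (0.53), Phf11d (0.52), Apol9a (0.48), Gbp3 (0.47), Gbp2 (0.44), Ifi203 (0.43), Mndal (0.43), Ifi27l2a (0.42), B2m (0.41) and Iigp1 (0.41). Among the 10 most correlated with Iigp1 and Igtp were F830016B08Rik (0.62), Gbp2 (0.57), Ifi47 (0.52), Irgm1 (0.51), Gbp7 (0.51), Gbp4 (0.48), Gm4841 (0.46), Gbp3 (0.44) and Irgm2 (0.44). Gbp2 and Gbp3, guanylate binding proteins, were in both sets, and no member reached the r of these 10 genes with the pair, the highest being Parp14. The genes of the receptor chains and of Jak1 were near 0 with the members, at 0.01 for Ifnar1, 0.06 for Ifnar2 and -0.02 for Jak1.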

How the data were processed

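One library pooled 6 mouse tumour samples, 3 treated with ACSS2i and 3 given vehicle, each marked with 1 of 6 antibody tags. The deposited values are raw UMI counts per gene and tag in 9747 barcodes; they were made with Cell Ranger on mm10, per the submitters' processing notes, and the software version is 3.1.0 per the file headers. An annotation version was not given in the sources used here. Because no label maps tags to arms, the arms were not compared and no p-value is given.

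Barcodes needed a minimum of 500 genes and less than 15% mitochondrial UMIs. Tags were called with HTODemux (Seurat 5.3.0, R 4.3.3, quantile 0.99). Tag doublets, and barcodes meeting more than 1 class rule, were left out. UMIs were summed per class or tag and divided by all gene UMIs (CPM), with exact Poisson or binomial 95% intervals, which cover counting error only. A member was counted as higher or lower past 2-fold where the smaller class had at least 10 expected UMIs at the mean of the 2 levels. Correlations used log2(UMIs + 1) after thinning to 10000 UMIs, and ties in the top 10% were broken by the level per UMI before thinning. Scripts ran in Python 3.11.15 with numpy 2.4.6, scipy 1.17.1, pandas 2.3.3 and matplotlib 3.10.9, and were tested on simulated data.

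The members and the gene lists were chosen with earlier results of these data known. Full values are given for the 10 members with the most tumour UMIs, the 2 members with the highest and the 2 with the lowest ratio in each immune class, the 5 closest pairs and the 3 members with the lowest mean correlation; outside the list, for the 10 genes closest to the members and to Iigp1 and Igtp, and 2 per pathway list, apart from 1 gene that is not reported here. Rsad2, Irf7 and Ddx58 by tag were chosen after their values were seen. Alternatives covered barcode, class, tag, scaling and thinning choices; 2 were added after the data were seen, namely immune barcodes with under 3 keratin UMIs and the mean of single-barcode CPM.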

Additional observations from a re-analysis of the deposited data

Results flagged for a closer look

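The highest and the lowest tag were set against the others by the gap to the nearest tag over the whole range. This was done for the 35 members in tumour barcodes, and for the summed members and for Iigp1 with Igtp in macrophage, T and tumour barcodes. Of these 41 sets of values 2 stood out, where chance gives about 1 in 20, so the number is near that rate. The 35 members were read in the same tumour barcodes, so their sets are not independent. Bst2, which encodes the membrane protein tetherin, was 817 CPM in tumour barcodes tagged D0 and 638 CPM in the next tag, a gap of 0.760 of the range (critical value 0.625). Oas2, an oligoadenylate synthetase, was 6.77 CPM in D0 and 2.81 CPM in the next tag, a gap of 0.865 of the range.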

How the results depend on the processing

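Ratios are summed members over tumour barcodes, and counts are members past the threshold. The main ratios were 1.29 in macrophage, 1.43 in T, 1.08 in NK and 0.743 in B barcodes, with 12, 10, 5 and 1 members higher and 0, 0, 1 and 3 lower. With only barcodes with 1 tag the ratio was 1.18 in macrophage, 1.30 in T and 0.984 in NK barcodes, with 1 macrophage and 3 NK members lower. With tag doublets kept it was 1.23, 1.27 and 0.967, with 2 NK members lower and 2 B members higher. The NK ratio changed side in both, and the cause was not tested. Tumour RNA was also subtracted in proportion to all keratin of a class, most of which sat in the few keratin-carrying barcodes. The ratio was then 1.42 in macrophage, 1.65 in T and 0.599 in B barcodes. With that setting 17 T and 3 B members were higher and 1 macrophage, 4 NK and 5 B members lower. With immune barcodes under 3 keratin UMIs it was 1.34, 1.54, 1.19 and 0.843 in macrophage, T, NK and B barcodes, with 8 NK and 2 B members higher and 1 macrophage and 2 NK members lower. As the mean of single-barcode CPM it was 1.37 in macrophage and 1.499 in T barcodes, with 3 B members higher and 1 macrophage, 3 NK and 6 B members lower. With ratios divided by the median ratio of all genes it was 1.39 in macrophage, 1.18 in NK and 0.890 in B barcodes, with 3 B members higher. Without mitochondrial and ribosomal protein genes it was 1.56 in T and 1.21 in NK barcodes, with 0 NK members lower. With 10 keratin UMIs for tumour barcodes it was 1.39, 1.51 and 1.16 in macrophage, T and NK barcodes. With doubled immune class minimums it was 1.49 in T and 0.616 in B barcodes, with 0 B members higher and 3 NK members lower. A minimum of 1000 genes gave 1.36 in T barcodes and 0 B members higher, a minimum of 200 genes 2 B members higher, a mitochondrial limit of 10% 1 macrophage member lower, and barcodes in every class whose rule they met 2 NK members lower.

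A 1.5-fold threshold gave 18 T, 8 NK and 3 B members higher and 1 macrophage, 4 NK and 5 B members lower. A minimum of 30 expected UMIs gave 6 T, 3 NK and 0 B members higher and 0 NK and 1 B member lower. No filter beyond 1 UMI gave 11 NK and 4 B members higher and 3 NK and 8 B members lower. Both settings change how many members are tested, and the cause of the differences was not tested. Leaving out each tag in turn gave ratios of 1.27 to 1.40 in macrophage, 1.27 to 1.65 in T, 0.991 to 1.19 in NK and 0.636 to 0.976 in B barcodes. The counts higher were 11 to 14, 9 to 15, 5 to 6 and 0 to 1, and the counts lower 0 to 1, 0 to 0, 0 to 3 and 0 to 4.

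Among tumour barcodes, the median correlation of member pairs was 0.13 when thinned to 5000 UMIs, against 0.20 at 10000. The overlap with Iigp1 and Igtp was 13.4% for the top 5% and 40.0% for the top 20%, where unrelated sets would share 5% and 20%, and 32.7% for the wider GTPase list, against 26.6%. With untagged barcodes given to their strongest tag, D0 was 1.11 times the median of the other tags (1.48 in the main calls), 16 members were highest in it (29), and Iigp1 and Igtp in U2 were 3.46 times that median (2.77). The last ratio was 3.08 at an HTODemux quantile of 0.95 and 3.07 with a minimum of 1000 genes, and the D0 ratio was 1.57 without Bst2. No paired analysis was possible between the arms because no label ties a tag to an arm, while the classes were compared within tags as values with no test. One lane and 6 tags leave the samples' spread across arms unmeasured, and the 92 B and 121 NK barcodes limit what low members can show.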
